A study of Mus musculus with 24 samples.

Results

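The interleukin 6 family of cytokines and its STAT3 axis were followed through 10 listed genes, matched to the deposited identifiers by Gencode symbol. They comprised 5 ligands (Il6, Il11, Lif, Clcf1 and Cntf), 3 receptor subunits (Il6st, Osmr and Lifr), the transcription factor Stat3 and the feedback inhibitor Socs3. The count table held 49671 genes, of which 19691 passed a filter on low counts, and all 10 members were among them. Il6 and Il11 passed through the libraries in which they were high, so a difference between groups was built into their passing. Osmr, with 3 counts over the NSC libraries and 6 over the AGES libraries, passed through the primary groups, where it was high.

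The study profiled polyadenylated RNA from mouse astrocytes and their stem cell counterparts in 24 libraries, 4 in each of 6 groups. Neural stem cells (NSCs) were grown from 1 embryonic stem cell line of C57BL/6N origin in N2B27 medium with FGF and EGF, each at 20 ng/ml. AGES, the astrocytes generated from these NSCs, received 20 ng/ml BMP4 for 3 to 5 days. Neonatal (neoAC) and adult (AdAC) astrocytes came from C57BL/6J mice of 4 to 8 and 100 to 140 days and were enriched by magnetic sorting for ACSA-2, an epitope on the product of Atp1b2. They were either frozen at once (direct) or kept 7 to 10 days in an astrocyte medium (CellC). No group carried a transgene, and both sexes entered the primary preparations. Each primary replicate pooled 2 mice, and each NSC or AGES replicate was a culture of another passage of the same line. Replicates in those 2 groups thus stood for passages of 1 line, not for other lines. The fit of all 6 groups shared 1 estimate of spread per gene, so a p-value did not measure the spread between passages alone. Adult and neonatal tissue was dissociated with different kits, so age and dissociation cannot be told apart. AGES and primary cells differed in substrain, medium and substrate as well as in origin, which cannot be told apart either. AGES and NSCs differed in the growth factors listed (BMP4, or FGF and EGF) and in substrate. The substrate was poly-ornithine with laminin for AGES and gelatin for NSCs, and these differences cannot be told apart.

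Cytokines of this family are secreted proteins that share 1 signal-transducing receptor subunit, encoded by Il6st. Interleukin 6 and interleukin 11 assemble Il6st with a private receptor chain. LIF signals through Il6st with Lifr, CNTF and CLCF1 through that pair with the private chain Cntfr, and oncostatin M through Il6st with Osmr. The bound receptor activates JAK kinases, these phosphorylate STAT3, and STAT3 induces Socs3, whose product blocks the same receptor complex. In the brain the axis is known for driving astrocyte differentiation from precursors and for the reactive state of astrocytes after injury.

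Libraries held between 27904126 and 37997368 counts. Of 9 astrocyte markers, CPM (counts scaled to a common library total by the TMM method) summed to 52000 to 57100 in AGES, 19680 to 22900 in neoAC direct, 13960 to 14560 in AdAC direct, 7245 to 8464 in neoAC CellC, 952 to 1432 in AdAC CellC and 1720 to 2097 in NSCs. The AGES sum is mostly Gfap, itself a known target of the axis, and without it the other 8 summed to 3163 to 4168 in AGES and 4591 to 5321 in neoAC CellC. The NSC sum is mostly Slc1a3, and 7 of the 9 markers had a higher mean in AdAC CellC than in NSCs. None of the 9 was at 0 in any group, and 8 of the 9 were lower in AdAC CellC than in AdAC direct. The sum of 6 oligodendrocyte markers was 4092 to 10430 CPM in AdAC CellC against 25600 to 28420 in AdAC direct. That of 6 mural and fibroblast markers was 1528 to 1946 against 323 to 347, with 4 higher, among them Acta2 and Col1a1, and 2 lower, Pdgfrb and Rgs5. Neural stem cell markers (6 genes) summed to 1714 to 1932 against 467 to 564 (3 higher, 3 lower), neuron markers (4 genes) to 48.9 to 78.0 against 9.58 to 11.7 (1 higher, 2 lower) and ependymal markers (3 genes) to 192 to 270.1 against 870.2 to 979. From neoAC direct to neoAC CellC the ependymal sum went from 113 to 171 up to 1241 to 1571, the mural and fibroblast sum from 273 to 528 to 469 to 909 and the sum of 5 endothelial markers from 84.5 to 333 down to 42.9 to 71.0. Microglia markers (8 genes) summed to 62.8 to 80.9 CPM in AdAC CellC against 56.85 to 61.0 in AdAC direct (4 higher, 2 lower). In neonatal cells they summed to 40.5 to 54.2 in culture against 30.2 to 86.0 after direct isolation (2 higher, 5 lower). Beside these counts of markers, 38.8% of all genes tested were higher and 39.2% lower in adult culture, and 34.4% and 31.3% in neonatal culture. The part of these marker levels in the differences with culture or age given below was not tested. In such bulk samples fewer cells of a type and less RNA per cell cannot be told apart.

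**Figure D1:**
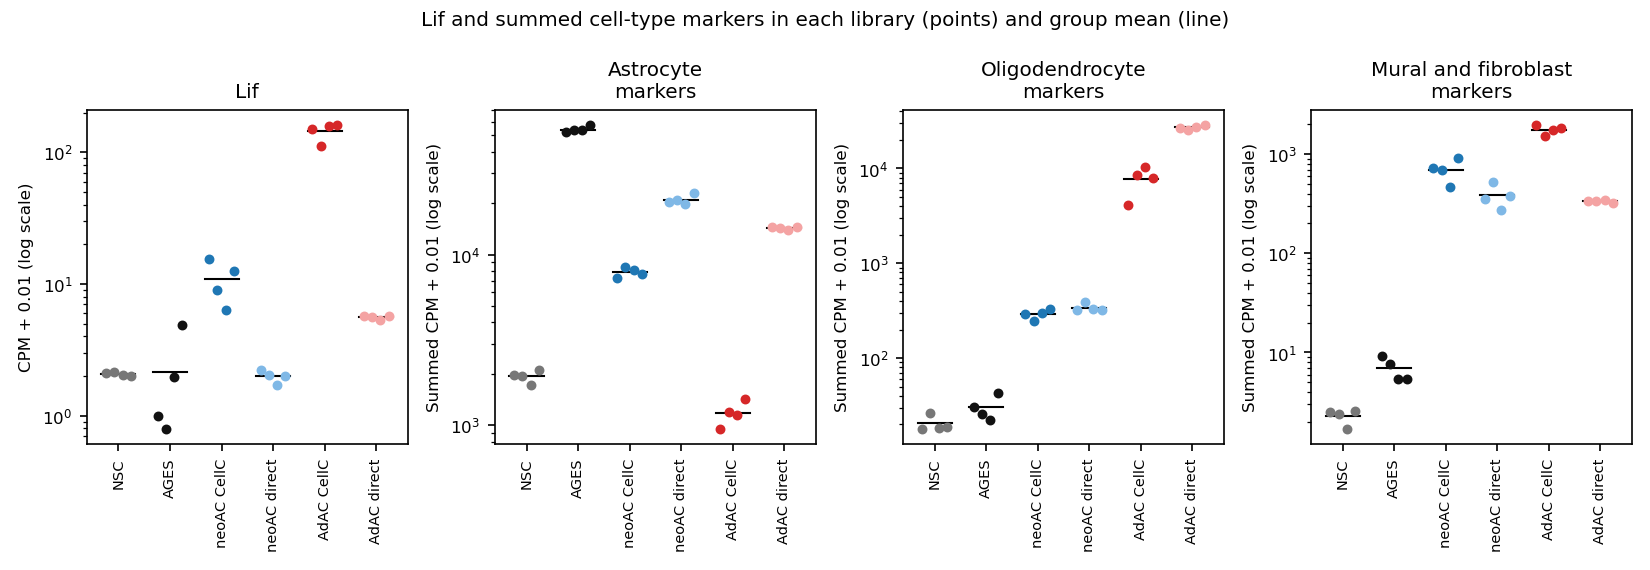
Lif and the summed astrocyte (9 genes), oligodendrocyte (6 genes) and mural and fibroblast (6 genes) markers in the 24 libraries, on log scales of CPM + 0.01. Points are libraries and lines group means, and the 4 AdAC CellC libraries hold the highest Lif, the lowest astrocyte sum and the highest mural and fibroblast sum. Gfap makes up most of the astrocyte sum in AGES.

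Among the ligands, Lif (ENSMUSG00000034394, chr11:4257557-4272514, plus strand, GRCm38), the leukemia inhibitory factor that keeps embryonic stem cells undifferentiated, was far higher in cultured adult cells than elsewhere. Its level was 150.2, 112, 158 and 160.3 CPM in the 4 AdAC CellC libraries and 5.68, 5.62, 5.32 and 5.67 CPM in AdAC direct. It was 15.5, 8.99, 6.38 and 12.6 CPM in neoAC CellC and 2.21, 2.02, 1.70 and 2.00 CPM in neoAC direct. All AdAC CellC libraries exceeded all others, and neoAC CellC came next without overlapping any other group. Lif rose 26.0-fold with culture in adult cells (log2 fold change 4.70 ± 0.33 SE, adjusted p = 9.05e-12) and 5.45-fold in neonatal cells (2.45 ± 0.34, adjusted p = 1.42e-06). NSCs held 1.97 to 2.13 CPM, while the 4 AGES libraries spread over 0.975, 0.783, 1.96 and 4.87 CPM. AGES therefore lay on both sides of the NSCs, with a log2 difference of 0.06 ± 0.38 and an adjusted p of 0.92. Without AGES replicate 4, the library with the highest Lif, the difference was -0.73 with an adjusted p of 0.0383, so 1 library decided that call.

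Clcf1 (ENSMUSG00000040663, chr19:4214238-4223490, plus strand), a cardiotrophin-like cytokine, was high in every cultured astrocyte group and in AGES, and near absent from NSCs and freshly isolated cells. It reached 78.3, 82.4, 79.7 and 90.3 CPM in AdAC CellC, 30.3, 15.4, 12.6 and 16.8 CPM in neoAC CellC and 19.2, 10.8, 35.4 and 18.6 CPM in AGES. It stayed between 1.72 and 2.53 CPM in AdAC direct, 0.714 and 1.16 in neoAC direct and 0.159 and 1.00 in NSCs. AGES and neoAC CellC overlapped, and AdAC CellC lay above both. The rise with culture was 38.7-fold in adult cells (log2 5.27 ± 0.35, adjusted p = 3.1e-12) and 19.1-fold in neonatal cells (4.26 ± 0.37, adjusted p = 7.46e-10), and that from NSCs to AGES was 41.5-fold (5.37 ± 0.41, adjusted p = 4.29e-11). AGES and neoAC CellC differed by 0.16 ± 0.28 on the log2 scale (adjusted p = 0.611), and the sign turned to -0.21 without AGES replicate 3, where Clcf1 was highest. Of the exon bases of Clcf1, 8.17% overlap another gene on the same strand.

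Il6 (ENSMUSG00000025746, chr5:30013114-30019981, plus strand), the founding member and an inflammatory cytokine, was rare everywhere. AdAC CellC libraries held 33, 55, 36 and 46 counts, or 0.956 to 1.60 CPM, against 2, 1, 0 and 1 counts in AdAC direct. Neonatal cells ran the other way, with 3, 4, 2 and 4 counts in culture and 13, 7, 7 and 15 counts after direct isolation. No count was found in any NSC or AGES library, which allows up to 0.0240 and 0.0247 CPM. The ratio of AdAC CellC to AdAC direct was 40.3, with a 95% counting interval of 15.4 to 149.6 (exact binomial, covering counting error only), and that of neoAC direct to neoAC CellC was 3.64 with an interval of 1.92 to 7.39. Both differences passed edgeR's test, with adjusted p of 1.25e-08 and 0.00191. AdAC CellC lay at least 50.4-fold and neoAC CellC at least 3.70-fold above AGES, with the floor for AGES set at 3 counts over its 4 libraries.

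Il11 (ENSMUSG00000004371, chr7:4772373-4782859, minus strand), a cytokine linked to tissue fibrosis, showed the same split by age. It measured 3.81, 3.82, 5.02 and 4.72 CPM in AdAC CellC and 0.816, 1.76, 1.90 and 1.04 CPM in AdAC direct. In neonatal cells it was 0.111 to 0.183 CPM in culture and 0.272 to 0.466 CPM after direct isolation. Culture thus went with a 3.13-fold rise in adult cells (log2 1.65 ± 0.28, adjusted p = 9.37e-06) and a fall in neonatal cells (-1.25 ± 0.44, adjusted p = 0.0143), with no overlap of libraries in either. In AGES all 3 counts came from replicate 2, and AGES and NSCs held 3 and 11 counts in all. The ratio of NSCs to AGES was 3.57 with a counting interval of 0.944 to 19.9 and an adjusted p of 0.0704, which became 0.00233 without AGES replicate 2 and 0.04 without NSC replicate 3.

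Cntf (ENSMUSG00000079415, chr19:12763660-12765632, minus strand), the ciliary neurotrophic factor stored by mature astrocytes and Schwann cells, was detected at 4 to 19 counts in each library. Group means ran from 0.239 ± 0.130 CPM (SD, n = 4) in AdAC direct to 0.525 ± 0.120 in AGES, and each group overlapped its neighbour in that order. One comparison of 7 was called, AGES above AdAC CellC (log2 0.98 ± 0.38, adjusted p = 0.0213), and it was lost without AGES replicate 3 (adjusted p = 0.0538) or when scaled by library size only (adjusted p = 0.0739). The exons of Cntf overlap those of Zfp91 on the same strand over 78.9% of their length, so its level is uncertain whichever way shared reads were counted.

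Per transcript length the 5 ligands summed to 57.9 ± 5.75 RPKM (CPM per kilobase of exon, SD, n = 4) in AdAC CellC, against group means of 0.992 to 7.87 RPKM elsewhere. Lif supplied 57.3% ± 4.18 and Clcf1 37.7% ± 3.77 of that sum in AdAC CellC. In AGES the same sum was 6.51 ± 2.87 RPKM and Clcf1 made up 83.9% ± 6.56 of it, while in neoAC CellC Clcf1 made up 62.1% ± 3.82 of 7.87 ± 2.87 RPKM. Lif and Clcf1 together reached 91.6% to 95.1% of the RPKM of these 5 ligands in the cultured astrocyte groups and AGES, as group means. They reached 55.2% to 67.4% in the other groups. These shares leave out Ctf1, another ligand gene of the family. It held 2.86 ± 0.277 RPKM in neoAC direct, 2.66 ± 0.358 in AdAC direct and 1.99 ± 0.261 in AdAC CellC. In neoAC CellC it held 2.75 ± 0.555 RPKM, in AGES 1.17 ± 0.0972 and in NSCs 0.474 ± 0.0834. The 5 ligands summed to 1.31 and 2.74 RPKM in the 2 direct groups, 7.87 in neoAC CellC, 6.51 in AGES and 0.992 in NSCs. The shares in these groups would be lower with Ctf1, whose level in AdAC CellC was small beside the sum of 57.9 RPKM there.

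**Figure D2:**
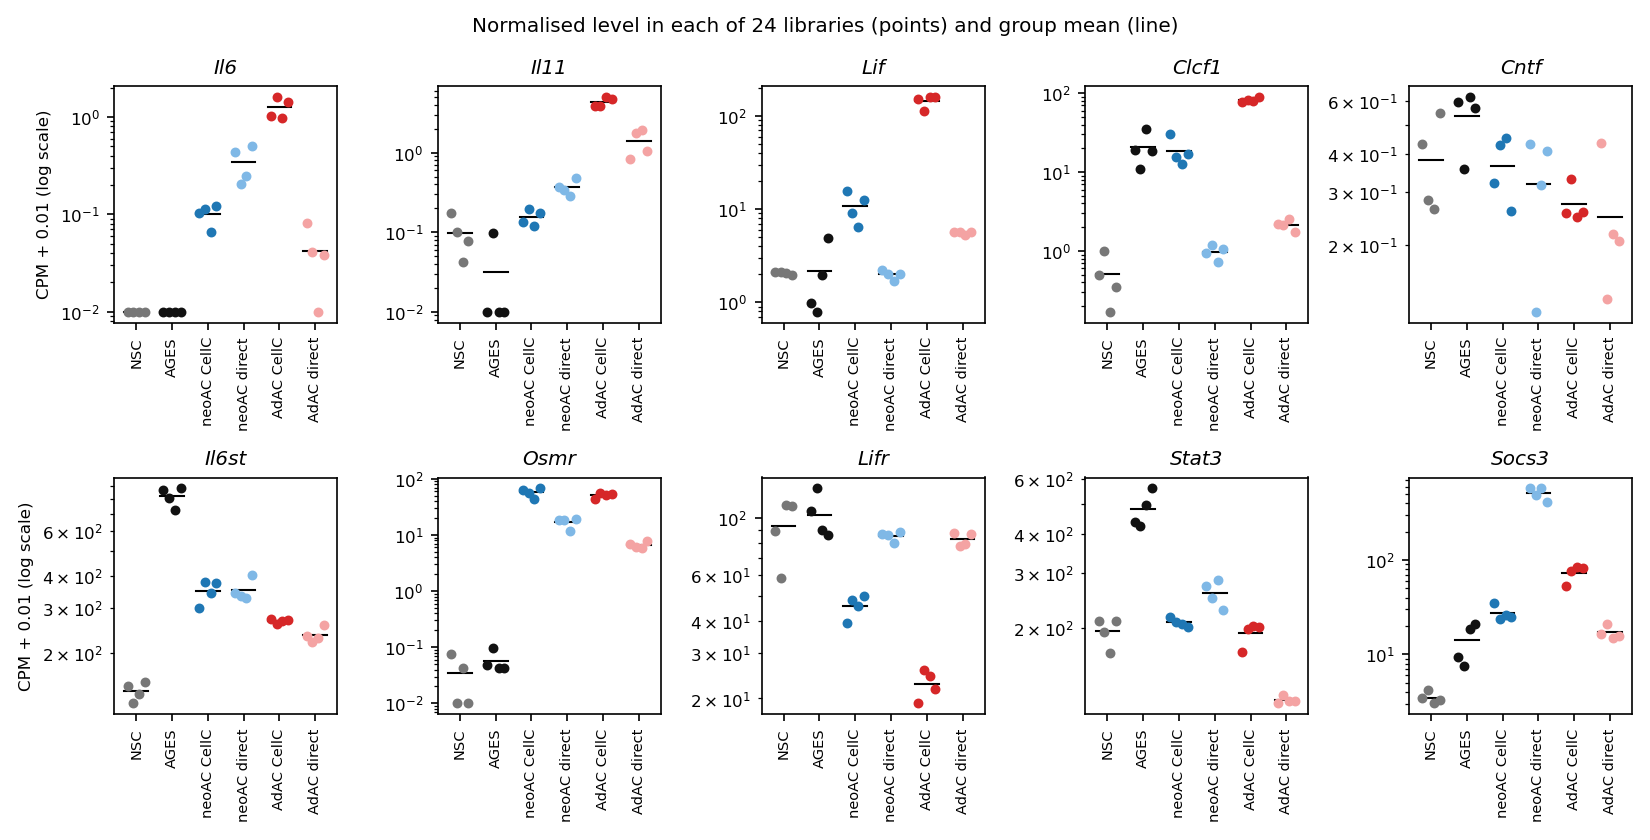
Level of the 10 members in each library, as CPM + 0.01 on log scales that differ between panels, with points for the 4 libraries and a line for the group mean. Lif and Clcf1 were highest in AdAC CellC, Il6st and Stat3 in AGES and Socs3 in neoAC direct, and Osmr was near the floor in NSCs and AGES.

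The RefSeq promoter table of build GRCm38.p6 had entries for 9 of the 10 members, with 2 starts each for Il11 and Lifr, and Clcf1 was not among them. The 250 bases before each start were searched on both strands for the AP-1 motif TGANTCA, bound by Fos and Jun dimers, and the STAT motif TTCNNNGAA. Each motif is its own reverse complement, and no promoter of a member held both. The AP-1 motif was found before Il6, Il11, Lif and Cntf, that is in 4 of 11 member promoters, and in 6.75% of all 32851 promoters. The stretches of Lif, Il6 and Il11 are shown as those with the motif among the 4 ligands that rose with culture in adult cells, 5′ to 3′ on the gene's strand, with the motif in capitals. They cover chr11:4257318-4257437 (plus strand) for Lif, chr5:30012864-30012983 (plus strand) for Il6 and chr7:4778180-4778299 (minus strand) for the second start of Il11, which lies inside its longer Gencode gene model.
Lif: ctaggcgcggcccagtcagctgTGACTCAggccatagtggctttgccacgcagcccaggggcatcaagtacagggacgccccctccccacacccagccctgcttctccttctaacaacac
Il6: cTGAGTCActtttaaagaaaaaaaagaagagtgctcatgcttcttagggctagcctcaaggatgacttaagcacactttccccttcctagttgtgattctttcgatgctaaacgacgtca
Il11: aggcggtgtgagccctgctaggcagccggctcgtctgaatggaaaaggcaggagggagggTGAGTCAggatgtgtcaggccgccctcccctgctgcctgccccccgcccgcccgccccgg
The motif began 228 bases before the start of Lif, 249 before that of Il6 and 98 before that of Il11. These matches are descriptions of sequence, and whether they are bound was not measured.

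Among the receptor subunits, Il6st (ENSMUSG00000021756, chr13:112464070-112510086, plus strand), the shared signal transducer, was highest in AGES and lowest in the NSCs they came from. It measured 873, 810.1, 724 and 884 CPM in the AGES libraries against 149, 127, 138 and 154 CPM in NSCs. NeoAC CellC held 300.5 to 381 CPM, neoAC direct 329 to 404, AdAC CellC 259.9 to 271 and AdAC direct 222 to 257. All AGES libraries exceeded all others and all NSC libraries lay below all others. The gene rose 5.79-fold from NSCs to AGES (log2 2.53 ± 0.09, adjusted p = 5.4e-18), and AGES exceeded AdAC CellC 3.08-fold (1.62 ± 0.09, adjusted p = 1.24e-14) and neoAC CellC 2.35-fold (1.23 ± 0.09, adjusted p = 3.02e-12). Culture went with log2 differences of 0.18 ± 0.09 in adult cells (adjusted p = 0.058) and -0.01 ± 0.09 in neonatal cells (adjusted p = 0.931). The adult difference was called at 0.26 under library size scaling (adjusted p = 0.0144), at 0.19 when only the groups compared were fitted (adjusted p = 0.0156) and at 0.24 without AdAC direct replicate 4 (adjusted p = 0.0222), and library size scaling also turned the neonatal one to 0.22 (adjusted p = 0.046).

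Osmr (ENSMUSG00000022146, chr15:6813577-6874969, minus strand), the oncostatin M receptor subunit, separated primary astrocytes from the stem cell lineage. It measured 62.2, 56.3, 43.4 and 68.1 CPM in neoAC CellC and 44.4, 56.3, 51.0 and 54.4 CPM in AdAC CellC, which overlapped. Directly isolated cells held less, 11.9 to 19.6 CPM in neoAC direct and 5.80 to 7.70 CPM in AdAC direct. The 4 NSC libraries had 2, 0, 1 and 0 counts and the 4 AGES libraries 1, 3, 1 and 1, against 1446 to 2457 counts in each cultured astrocyte library. AGES and NSCs did not differ detectably at this depth (ratio 2.05, counting interval 0.438 to 12.7). The ratio to AGES was 1163 for neoAC CellC (counting interval 534 to 3169) and 1045 for AdAC CellC (480.0 to 2849). Osmr rose 7.80-fold with culture in adult cells (log2 2.96 ± 0.16, adjusted p = 1.12e-14) and 3.35-fold in neonatal cells (1.74 ± 0.15, adjusted p = 1.94e-10). The mural and fibroblast sum was also near the floor in AGES and NSCs, at 5.37 to 9.25 and 1.69 to 2.58 CPM, and its part in the Osmr difference was not tested.

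Lifr (ENSMUSG00000054263, chr15:7090614-7197489, plus strand), the LIF receptor subunit, lies beyond Osmr on the same chromosome with a gap of 215.6 kb that holds no protein-coding gene, and it moved the opposite way with culture. AdAC CellC held 19.2, 25.7, 24.4 and 21.8 CPM against 87.6, 78.1, 79.4 and 86.6 CPM in AdAC direct, and neoAC CellC held 39.3, 48.3, 45.5 and 49.9 CPM against 86.5, 86.2, 79.98 and 88.2 CPM in neoAC direct. Neither pair overlapped, and the directly isolated groups, AGES (85.97 to 130.2 CPM) and NSCs (58.7 to 112 CPM) shared 1 range. Lifr was 3.64 times lower in AdAC CellC than in AdAC direct (log2 -1.86 ± 0.15, adjusted p = 6.39e-11) and 1.86 times lower in neoAC CellC than in neoAC direct (-0.90 ± 0.15, adjusted p = 1.13e-05). The direct groups differed by 0.04 ± 0.15 (adjusted p = 0.825) and AGES and NSCs by 0.15 ± 0.15 (adjusted p = 0.372).

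Per length, the balance of the receptor subunits moved from Lifr toward Osmr with culture. The RPKM ratio of Osmr to Lifr was 0.0706 ± 0.0060 (SD, n = 4) in AdAC direct and 2.02 ± 0.154 in AdAC CellC, and 0.178 ± 0.0307 in neoAC direct and 1.13 ± 0.240 in neoAC CellC. It was above 1 in all 4 AdAC CellC libraries, but in neoAC CellC it ran from 0.848 in replicate 3 to 1.41. The ratio is not given for AGES and NSCs, where it rests on 6 and 3 Osmr counts in all. Il6st exceeded the sum of Osmr and Lifr 7.96 ± 1.61 times in AGES, 1.57 ± 0.395 times in NSCs and 2.57 to 3.82 times, as group means, in the primary groups.

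**Figure D3:**
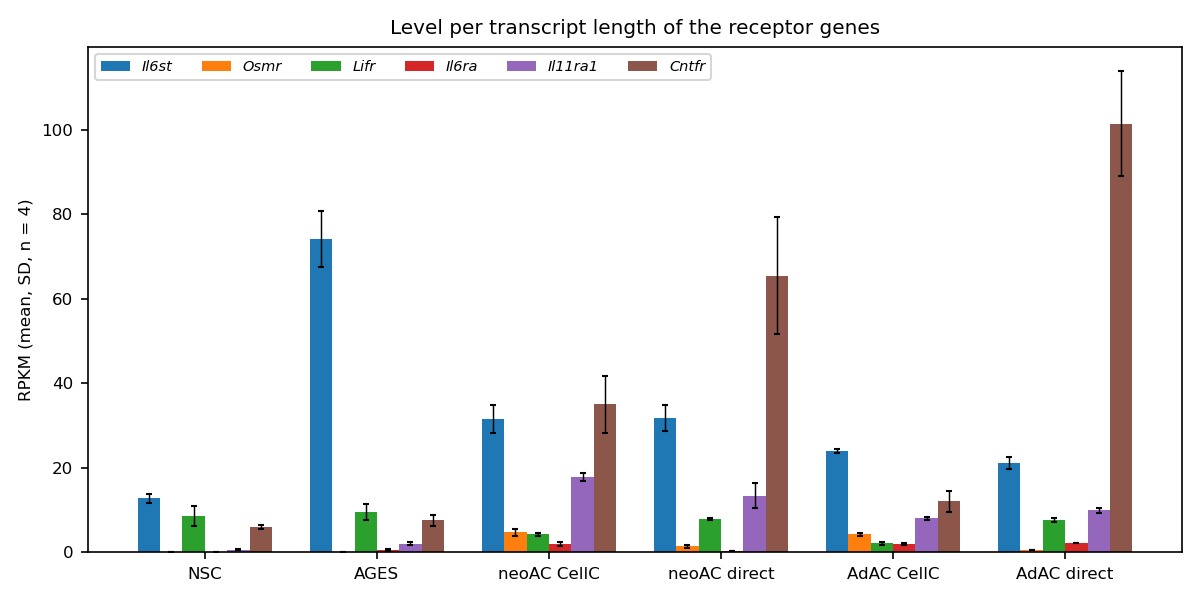
Level per transcript length of Il6st, Osmr, Lifr and the private chains Il6ra, Il11ra1 and Cntfr in the 6 groups. Bars are mean RPKM with SD of 4 libraries, Il6st is tallest in AGES at 74.1 and Cntfr in AdAC direct at 101.4.

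Stat3 (ENSMUSG00000004040, chr11:100885098-100939540, minus strand), the transcription factor of the axis, was highest in AGES. It measured 439, 426, 496 and 561 CPM in AGES against 211, 195, 167 and 211 CPM in NSCs. It measured 168, 199, 204 and 202 CPM in AdAC CellC, 115 to 122 CPM in AdAC direct, 203 to 218 CPM in neoAC CellC and 228 to 285 CPM in neoAC direct. AGES lay above every other library and AdAC direct below every other library. The rise from NSCs to AGES was 2.45-fold (log2 1.29 ± 0.09, adjusted p = 3.46e-12), and that with culture in adult cells 1.64-fold (0.72 ± 0.09, adjusted p = 1.29e-07). In neonatal cells Stat3 was lower in culture (-0.31 ± 0.09, adjusted p = 0.00472), a call lost under library size scaling (-0.08, adjusted p = 0.455). AdAC CellC and neoAC CellC differed by 0.11 ± 0.09 (adjusted p = 0.297), a difference called under 5 of the alternatives, at 0.20 to 0.22 (DESeq2 size factors, the DESeq2 test, the strict filter and the fits of the compared groups). Of the Stat3 exon bases, 0.756% overlap Stat5a on the opposite strand.

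Socs3 (ENSMUSG00000053113, chr11:117966079-117970047, minus strand), the feedback inhibitor induced by STAT3, stood far above its other levels in freshly isolated neonatal cells and changed in opposite directions with culture at the 2 ages. The neoAC direct libraries held 575, 490.4, 576 and 409 CPM, above all other libraries. AdAC CellC followed with 53.2, 75.7, 83.4 and 82.1 CPM, then neoAC CellC with 34.9, 23.5, 25.9 and 24.97 CPM. AdAC direct held 16.6, 21.0, 14.9 and 15.8 CPM, AGES 9.29, 7.57, 18.7 and 21.2 CPM and NSCs 3.46, 4.16, 3.03 and 3.24 CPM. AdAC direct and AGES overlapped, and no other neighbours in this order did. Culture thus went with opposite changes, an 18.8-fold lower level in neonatal cells (log2 -4.23 ± 0.26, adjusted p = 1.58e-12) and a 4.32-fold higher one in adult cells (2.11 ± 0.24, adjusted p = 3.52e-08). AGES exceeded NSCs 4.08-fold (2.03 ± 0.27, adjusted p = 5.18e-07).

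The neoAC direct libraries also stood apart in immediate-early genes, which are known to respond to tissue dissociation and made up 8 of a list of 10. The summed level of the list was 8755 to 12550 CPM in neoAC direct, 1309 to 2010 in AdAC direct, 430.3 to 687 in the cultured astrocytes of both ages, 339 to 520 in AGES and 171 to 344 in NSCs. The other 2, the heat shock genes Hspa1a and Hspa1b, did not stand apart, with sums of 26.2 to 79.6 CPM in neoAC direct, 49.7 to 90.1 in AdAC direct and 60.7 to 87.9 in AdAC CellC. All 10 were lower in neoAC CellC than in neoAC direct, where 31.3% of all genes were lower. In adult cells 6 were lower in culture and 3 higher, beside 39.2% and 38.8% of all genes. Fos, an immediate-early transcription factor, measured 4054 ± 567 CPM in neoAC direct and 529 ± 117 CPM in AdAC direct. The part of this list in the Socs3 level was not tested. Per length, Socs3 exceeded Stat3 6.50 ± 0.444 times in neoAC direct and 1.25 ± 0.142 times in AdAC CellC, and lay below it in the other groups, with ratios of 0.0587 ± 0.0087 in NSCs, 0.0943 ± 0.0351 in AGES, 0.430 ± 0.0686 in neoAC CellC and 0.476 ± 0.0652 in AdAC direct.

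**Figure D4:**
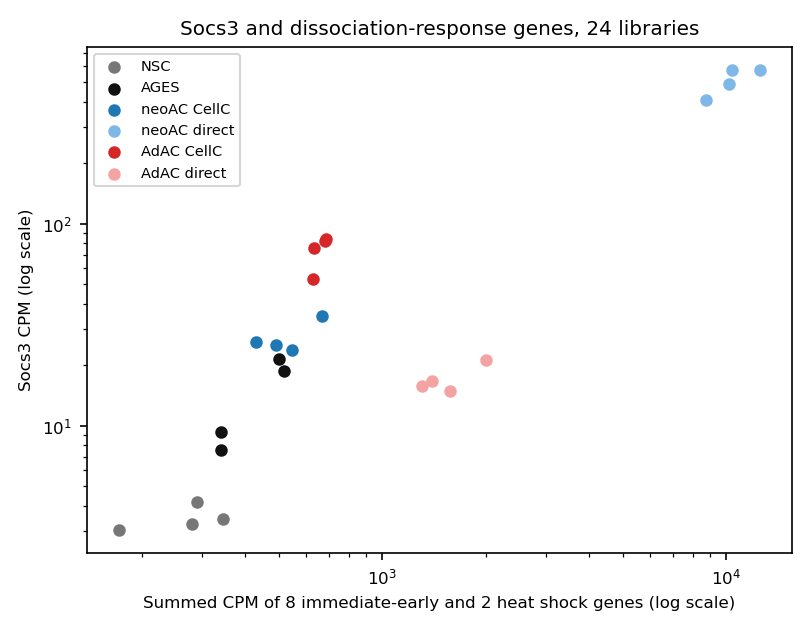
Socs3 level against the summed level of 8 immediate-early and 2 heat shock genes in 24 libraries, both in CPM on log axes, with 1 colour for each group. The 4 neoAC direct libraries lie highest on both axes, and AdAC direct lies at 1309 to 2010 CPM of the sum with Socs3 at 14.9 to 21.0 CPM, below AdAC CellC.

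The STAT motif TTCNNNGAA was found in 1 of the 11 member promoters, that of Socs3, and in 7.02% of all promoters. The stretch that holds it is shown because Socs3 is the known feedback target of the axis, with the motif in capitals, beginning 154 bases before the RefSeq start. It covers chr11:117969461-117969580 on the minus strand and lies outside exons but inside the longer Gencode model of the gene.
Socs3: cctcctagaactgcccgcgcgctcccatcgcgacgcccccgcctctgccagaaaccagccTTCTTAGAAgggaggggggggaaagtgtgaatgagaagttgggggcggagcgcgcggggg
The AP-1 motif was not found in this window.

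Taking the comparisons in turn, the first set cultured adult preparations against directly isolated ones. Their marker sums, given above, differed too, so a change within astrocytes and a change in cell mixture cannot be told apart. Of the 10 members 7 were higher and 1 lower in AdAC CellC than in AdAC direct, where 38.8% of all genes tested were higher and 39.2% lower. The 7 were Il6, Il11, Lif, Clcf1, Osmr, Stat3 and Socs3, and the 1 was Lifr. Il6 and Il11 count among the 7, though they passed the filter through libraries in which they were high. A difference between groups was thus built in for both, here and in the comparisons below. The median log2 difference over all 10 members, both included, was 1.88, against 0.00 over all genes.

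In neonatal cells 3 members were higher in culture (Lif, Clcf1 and Osmr) and 5 lower (Il6, Il11, Lifr, Stat3 and Socs3), beside 34.4% and 31.3% of all genes. The change with culture differed between the ages for 7 of 10 members, where 68.6% of all genes passed the same test, so the share of members was near the background. The difference of log2 changes, adult minus neonatal, was 7.00 ± 0.70 for Il6, 6.34 ± 0.35 for Socs3, 2.90 ± 0.52 for Il11, 2.26 ± 0.46 for Lif, 1.22 ± 0.21 for Osmr, 1.02 ± 0.13 for Stat3 and -0.97 ± 0.21 for Lifr. For Clcf1 it was 1.02 ± 0.51 (adjusted p = 0.0794), which was called without neoAC CellC replicate 1 (1.36, adjusted p = 0.0124) and when only the 4 groups were fitted (1.02, adjusted p = 0.0162).

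In AGES against NSCs 4 of 10 members were higher (Clcf1, Il6st, Stat3 and Socs3) and 0 lower, beside 31.7% and 34.0% of all genes. Against AdAC CellC, AGES were higher in 4 members (Cntf, Il6st, Lifr and Stat3) and lower in 6, with 31.0% of all genes higher and 45.2% lower. Against neoAC CellC they were higher in Il6st, Lifr and Stat3 and lower in Il6, Il11, Lif, Osmr and Socs3, with 34.1% and 40.5% of all genes. These comparisons share the AGES libraries and are not independent. Osmr was among the members lower in both comparisons with cultured cells. It passed the filter through primary libraries in which it was high, so a difference was built in for it. The medians over all genes were -0.23 and -0.07 on the log2 scale, and library size scaling moved them to -0.45 and -0.37. That scaling also moved the neonatal culture median from 0.04 to 0.27, and split its calls into 8628 higher and 4468 lower in place of 6766 and 6170, and those of AGES against neoAC CellC into 4504 and 9822 in place of 6710 and 7977.

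Between cultured cells of the 2 ages, 2 members were higher in neoAC CellC (Il6st and Lifr) and 5 lower (Il6, Il11, Lif, Clcf1 and Socs3), beside 28.5% and 35.2% of all genes. The largest of these was Il11, 28.8 times lower in neoAC CellC (log2 -4.85 ± 0.36, adjusted p = 2.14e-11). Between directly isolated cells, 5 were higher in neoAC direct (Il6, Il6st, Osmr, Stat3 and Socs3) and 3 lower (Il11, Lif and Clcf1), beside 35.0% and 36.4% of all genes. Socs3 led with a 30.0-fold higher level in neoAC direct (4.91 ± 0.27, adjusted p = 1.37e-13). The Clcf1 call (-1.12 ± 0.41, adjusted p = 0.0185) was lost without neoAC direct replicate 3 (adjusted p = 0.0545) and with no filter (adjusted p = 0.0559). The sum of 6 oligodendrocyte markers was 321 to 394 CPM in neoAC direct against 25600 to 28420 in AdAC direct. In culture it was 247 to 330 CPM in neoAC CellC against 4092 to 10430 in AdAC CellC. In both age comparisons a difference within astrocytes and a difference in cell mixture cannot be told apart.

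**Figure D5:**
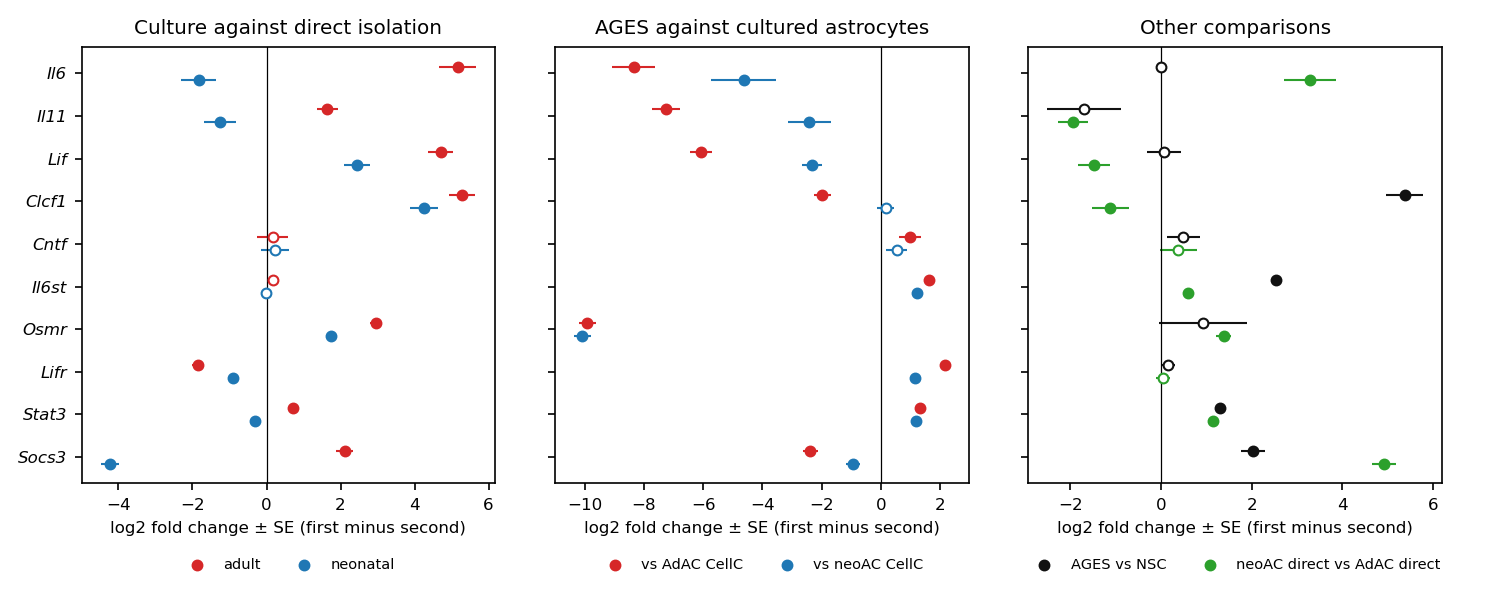
Log2 fold changes of the 10 members, first group minus second, with bars for the standard error and filled points for an adjusted p under 0.05. Il6, Il11, Stat3 and Socs3 rose with culture in adult cells and fell in neonatal cells, and Osmr lies near -10 in both comparisons of AGES with cultured astrocytes.

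Other genes of the pathway were taken from fixed lists. Beside their counts, the shares of all genes were 38.8% higher and 39.2% lower in adult culture, 34.4% and 31.3% in neonatal culture and 31.7% and 34.0% in AGES against NSCs. Ctf1, which encodes cardiotrophin, another ligand of the Lifr and Il6st pair, was 3.63 ± 0.475 CPM in AdAC CellC and 4.86 ± 0.652 CPM in AdAC direct (log2 -0.42 ± 0.16, adjusted p = 0.0193), a call lost under library size scaling. In neonatal culture it differed by -0.06 ± 0.16 (adjusted p = 0.764), and it rose 2.47-fold from NSCs to AGES (1.30 ± 0.19, adjusted p = 1.01e-06). Osm, which encodes the ligand of Osmr and is made by myeloid cells, did not pass the filter and had 0 counts in all 8 AGES and neoAC CellC libraries and at most 29 counts in any library.

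Of 5 private receptor chains 4 passed the filter. Cntfr, the chain that binds CNTF and CLCF1, was lower in culture at both ages, as Lifr was, with 282 ± 34.6 CPM in AdAC direct and 33.5 ± 6.95 CPM in AdAC CellC (log2 -3.07 ± 0.17, adjusted p = 5.29e-14) and 182 ± 38.4 and 97.4 ± 18.9 CPM in the neonatal groups (-0.90 ± 0.16, adjusted p = 2.73e-05). Unlike Lifr it was low in AGES and NSCs, at 21.2 ± 3.68 and 17.0 ± 1.27 CPM, and it was lower in neoAC direct than in AdAC direct (-0.63 ± 0.16, adjusted p = 0.00111). Il6ra, the interleukin 6 chain, was 7.12 times higher in neoAC CellC than in neoAC direct (2.83 ± 0.21, adjusted p = 1.19e-11), while in adult cells it differed by -0.13 ± 0.19 (adjusted p = 0.524). Il11ra1, the interleukin 11 chain, was 79.7 ± 4.50 CPM in neoAC CellC and 9.17 ± 1.35 CPM in AGES. All 4 chains were lower in AGES than in either cultured group, beside 45.2% of all genes lower against AdAC CellC and 40.5% against neoAC CellC.

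Among 6 kinases and other STAT genes, 1 was higher and 2 lower in adult culture, and 3 and 3 in neonatal culture, which became 1 and 1 and 3 and 1 under library size scaling. With 6 genes these shares are not above those of all genes in adult culture. Jak1, the kinase most tied to Il6st, rose 1.75-fold from NSCs to AGES (log2 0.81 ± 0.07, adjusted p = 6.93e-11). Jak2 was lower in culture at both ages (-0.60 ± 0.10 in adult and -0.57 ± 0.10 in neonatal cells, adjusted p = 5.46e-06 and 1.42e-05). Of 8 inhibitors and adaptors, beside the shares of all genes just given, 6 were higher and 1 lower in adult culture, 1 and 4 in neonatal culture and 4 and 3 in AGES against NSCs. The phosphatase genes Ptpn1 and Ptpn2 differed by 0.82 ± 0.08 and 0.94 ± 0.12 in adult culture (adjusted p = 1.11e-09 and 1.36e-07) and by -0.12 ± 0.08 and -0.05 ± 0.12 in neonatal culture (adjusted p = 0.203 and 0.714).

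Of 15 genes known to respond to STAT3, 14 were higher and 0 lower in AdAC CellC than in AdAC direct, with a median log2 difference of 3.83 against 0.00 over all genes, and the counts were the same under the other 2 scalings. In neonatal culture 10 were higher and 3 lower (median 0.99), and in AGES against NSCs 11 and 1 (median 2.16). Cd44, a hyaluronan receptor, rose 31.7-fold in adult culture (log2 4.99 ± 0.19, adjusted p = 4.3e-17) and Vim, an intermediate filament gene, 13.1-fold (3.72 ± 0.15, adjusted p = 5.27e-17). Gfap, the astrocyte filament and a known STAT3 target, was the 1 gene not called there, at 189 ± 56.1 CPM in AdAC CellC and 167 ± 7.00 CPM in AdAC direct (0.18 ± 0.14, adjusted p = 0.239). In AGES Gfap stood at 50500 ± 1883 CPM against 32.9 ± 2.89 CPM in NSCs. Many genes of this list also respond to other signals and are expressed by other cell types, and the marker sums given above moved with it.

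Genes whose log2 level ran most like that of a member over the 24 libraries were named by Pearson r, as a description across libraries that share group structure. Socs3 ran closest to Irf1 (r = 0.98), an interferon-responsive transcription factor, and to Sik1 (r = 0.97). Il6st ran closest to Podn (r = 0.97) and Gfap (r = 0.97), Stat3 to Mettl27 and Plat (r = 0.97 for both) and Osmr to Slc35d2 and Thy1 (r = 0.99 for both). Lif ran closest to Tinagl1 (r = 0.98), Spp1 and Ereg (r = 0.96 for both), Clcf1 to Itga3, Tgfb3 and Tgm2 (r between 0.96 and 0.97), and Lifr to Sall1 (r = 0.96).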

How the data were processed

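RNA-seq counts of 10 genes in 24 mouse libraries, 4 in each of 6 groups, were analysed, with groups taken from the sample titles. The authors prepared stranded polyadenylated libraries, aligned paired reads to GRCm38 with STAR (2.7.3a in the submitters' processing notes, which also name bcl2fastq 2.20) and assigned them to Gencode vM12 exons with featureCounts. The authors deposited whole-number counts per gene, not normalized. Whether counting used strand or pairs was not given in the sources used here. All count columns were used.

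Symbols, positions and exon lengths came from Gencode vM21 (99.5% of identifiers matched). Counts were filtered with filterByExpr, scaled by TMM and tested in 1 fit of all 6 groups with edgeR 4.0.16 quasi-likelihood tests (R 4.3.3, robust, two-sided, Benjamini-Hochberg over 19691 genes, threshold 0.05). Standard errors are the absolute log2 fold change over the square root of F. CPM are on the TMM scale and RPKM divide them by union exon length. The test was run on simulated counts first. Ratios of low counts carry 95% exact binomial intervals.

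Named genes were the 10 members, the 4 genes of each pathway list with the highest mean CPM, and for each member the 3 protein-coding genes of highest correlation. One gene named by this rule is not reported here. The members and lists were chosen with earlier results of these data known. Alternatives were DESeq2 1.42.0 (size factors and Wald test), library size scaling, 2 other filters, fits of the compared groups, a replicate block and leaving out each library. Correlations of same-numbered libraries' deviations from group means ran from -0.095 to 0.11, and in 0 of 7 comparisons were all above 0.1, so numbers were not taken as pairs. Replicates of each group differed by more than counting noise (chi-square per degree of freedom of at least 5.61).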

Additional observations from a re-analysis of the deposited data

Results flagged for a closer look

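Among 60 sets of 4 libraries (10 members in 6 groups), 5 held a library far from the other 3, with a gap beyond Dixon's 95% critical value. Il6 was at 0 in every NSC and AGES library, so those sets could hold none. Chance gives about 1 in 20, so 5 is close to that. The libraries were Il11 in AGES replicate 2 at 0.0870 CPM, where the others were at 0, and Osmr in the same library, also 0.0870 CPM, where the others held 0.0320 to 0.0390. Each of these rests on 3 counts. Cntf stood at 0.321 CPM in AdAC CellC replicate 2, against 0.239 to 0.248 in the others, which is 11 counts. Lif was 5.32 CPM in AdAC direct replicate 3, against 5.62 to 5.68, and Stat3 was 168.0 CPM in AdAC CellC replicate 1, against 199 to 204.

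The change with culture differed between adult and neonatal cells, by a test of the difference itself, for 7 of 10 members, where 68.6% of all genes passed the same test. The log2 differences, adult minus neonatal, were 7.00 for Il6 (adjusted p = 3.44e-08), 6.34 for Socs3 (2.72e-13), 2.90 for Il11 (2.41e-05), 2.26 for Lif (0.000161), 1.22 for Osmr (1.76e-05), 1.02 for Stat3 (1.59e-07) and -0.97 for Lifr (0.000297). The change ran in opposite directions for Il6, Il11, Stat3 and Socs3. For Lif, Osmr and Lifr it ran the same way at both ages and was larger in adult cells.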

How the results depend on the processing

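Requiring at least 10 counts in every library left 5 members and 11977 genes, so that 4 members were called in adult culture, 4 in neonatal culture, 5 in AGES against AdAC CellC, 5 against neoAC CellC, 4 between direct groups and 4 in the comparison of culture changes. Genes called then numbered 9816, 8554, 9374, 8766, 9181 and 8723 in the same order, and 8068 between cultured groups. Signs turned for 5 members, and the cause was not tested. Il6st in neonatal culture was 0.0044 with DESeq2 size factors or test, 0.22 by library size, 0.096 with the strict filter and -0.05 to 0.061 leaving out libraries. Lif in AGES against NSCs was -0.018 by library size, -0.19 with the replicate block and -0.73 to 0.36 leaving out libraries. Clcf1 in AGES against neoAC CellC was -0.15 by library size and -0.21 to 0.49 leaving out libraries. Lifr between direct groups was -0.029 by library size, and in AGES against NSCs -0.011 to 0.26 leaving out libraries. Leaving out libraries gave Cntf -0.043 to 0.56 in adult culture, -0.075 to 0.42 in neonatal culture and -0.27 to 0.34 in their difference.

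With the replicate block, fitted to the compared groups, 9 members were called in adult culture and 8 in neonatal culture, 4 in AGES against NSCs, 10 and 8 in AGES against AdAC CellC and neoAC CellC, and 8 in each of the other comparisons. Of all genes, 79.3%, 62.2%, 59.4%, 75.1% and 70.3% were called in the 5 named comparisons and 64.3% to 72.5% in the others. Of the members' values, 702 without 1 library and 499 under other settings kept direction and call. With the direction kept, 4 and 10 became called and 2 and 3 lost the call. A further 12 and 8 turned sign and were counted apart, whether called or not. At most 4 of 8 libraries correlated best with their own number. Il6, with 0 to 55 counts a library, and Il11, Osmr and Cntf where they hold few, are limited by depth.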
